A study of Mus musculus with 2 samples.

Results

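The 10 genes described here were listed together for iron and heme handling in macrophages, though *Hpgds* encodes a prostaglandin D synthase. The genes were *Hmox1*, *Blvrb*, *Blvra*, *Slc40a1*, *Fth1*, *Ftl1*, *Trf*, *Tfrc*, *Slc11a1* and *Hpgds*. They were taken by symbol from the 31053 genes of the count tables, and all 10 had UMIs (unique molecular identifiers, each standing for 1 captured transcript) in both libraries. The cells were adipose tissue macrophages (ATMs), sorted as CD45+Lin-Ly6Clow/-F4/80+ from the epididymal fat of male C57/BL6 mice aged 8 to 12 weeks. One library came from 3 pooled mice on control diet (CD, 11 kcal% fat) and the other from 3 pooled mice fed a high-fat diet (HFD, 58 kcal% fat) overnight. With 1 library per diet there was no replicate and no test between diets, and every interval given is a 95% interval for counting error only.

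Macrophages break down the heme of engulfed red cells with heme oxygenase, which frees iron and leaves biliverdin, a pigment that biliverdin reductases convert to bilirubin. The freed iron is stored in ferritin, a shell of heavy and light chains, or leaves through ferroportin, the only known iron exporter of mammalian cells, and then travels bound to transferrin. When iron is scarce, iron regulatory proteins bind hairpins called iron responsive elements (IREs): a hairpin before the coding sequence blocks translation, whereas hairpins after it protect the mRNA from decay.

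Such a hairpin was present in 4 of the 10 genes, in the annotated transcripts, which is why the sequences are shown. Where it lies before the coding sequence, mRNA level and protein output need not move together. The search asked for C, 5 bases, CAGTGN with any last base but G, and 5 bases that pair with the first 5, on the sense strand of the longest coding transcript. The pattern lay in an untranslated region (UTR) of 109 of 21901 coding genes, 0.498%. The capitals mark the 6-base loop, and positions are on GRCm38.
Tfrc 3′ UTR, chr16:32631219-32631247, plus strand: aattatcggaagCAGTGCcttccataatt
Tfrc 3′ UTR, chr16:32631598-32631626, plus strand: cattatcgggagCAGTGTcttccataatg
Tfrc 3′ UTR, chr16:32631663-32631691, plus strand: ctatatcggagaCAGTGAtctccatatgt
Tfrc 3′ UTR, chr16:32631710-32631738, plus strand: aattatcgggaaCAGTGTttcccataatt
Fth1 5′ UTR, chr19:9982732-9982760, plus strand: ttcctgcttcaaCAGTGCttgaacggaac
Ftl1 5′ UTR, chr7:45459779-45459807, minus strand: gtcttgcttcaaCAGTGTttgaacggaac
Slc40a1 5′ UTR, chr1:45925465-45925493, minus strand: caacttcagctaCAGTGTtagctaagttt
*Tfrc* thus held 4 matches after its coding sequence, while *Fth1*, *Ftl1* and *Slc40a1* held 1 each before theirs. The other 6 genes had no match, which says only that these letters were not in the transcripts searched.

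The libraries held 15003119 UMIs in 4459 barcodes (CD) and 9164686 UMIs in 3163 barcodes (HFD). Cells with 200 to 3500 genes and at most 10% mitochondrial UMIs numbered 2364 in CD (median 4490.5 UMIs) and 2021 in HFD (median 2792 UMIs), and 14 barcodes occurred in both libraries. Cells were grouped by the marker UMIs they carried: *Timd4*+ cells (368 in CD, 72 in HFD), *Lyve1*+ cells (1172 and 415), *Folr2*+*Lyve1*- cells (872 and 581), *Ccr2*+ cells (1326 and 1131) and Lyz1-high cells, with at least 10 *Lyz1* UMIs (555 and 672). *Timd4*, *Lyve1* and *Folr2* mark tissue-resident macrophages, and *Ccr2* and *Lyz1* mark cells nearer to monocytes. The sets overlapped, and 531 of the 555 Lyz1-high cells in CD were also *Ccr2*+. Lyz1-high cells were the deepest, with a median of 8205 UMIs in CD against 4052.5 in *Lyve1*+ cells. All 5 macrophage markers checked (*Adgre1*, *Csf1r*, *Cd68*, *Fcgr1*, *Mertk*) were detected in every set, with a summed level of 892 to 1976 CPM (counts per 1e6 UMIs) in CD and 660 to 1537 CPM in HFD.

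The genes split in the same way in both libraries. Higher in *Lyve1*+ than in Lyz1-high cells were 6 of them, *Slc40a1*, *Hpgds*, *Tfrc*, *Trf*, *Blvrb* and *Hmox1*, by 1.52 to 4.77 on the log2 scale in CD and by 1.55 to 5.51 in HFD. The ferritin genes *Fth1* and *Ftl1* differed little, by 0.08 to 0.48, and *Slc11a1* and *Blvra* by 0.12 to 0.56. In this comparison cells in both sets were left out, leaving 1049 against 432 cells in CD and 361 against 618 in HFD. A gene was called higher or lower at 1.5-fold or more (0.58 on the log2 scale) with at least 50 UMIs over both groups. By that rule 6 of the 10 genes were higher in CD, where 28.1% of 8173 genes were, and 6 of 10 in HFD, where 27.8% of 6889 genes were. None of the 10 was lower, against 11.2% of genes in CD and 12.8% in HFD. The median over the 10 genes was 1.81 in CD and 1.78 in HFD, beside 0.22 and 0.19 over all genes compared.

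**Figure D1:**
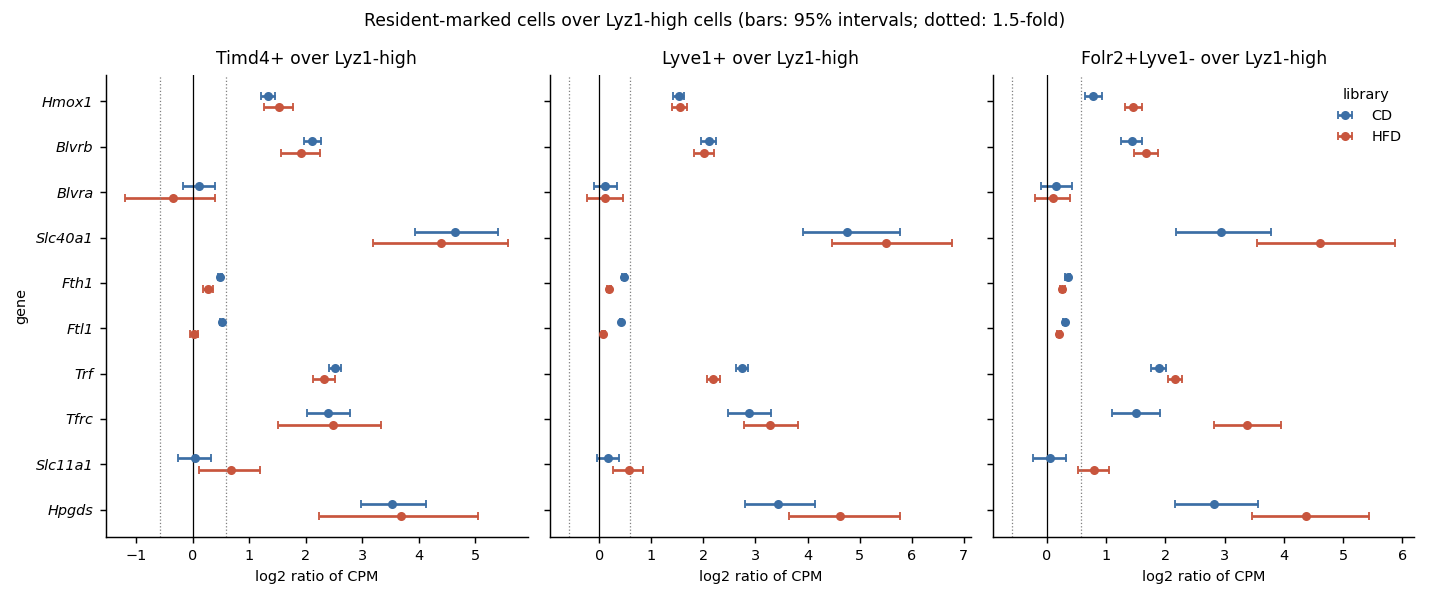
Log2 ratio of CPM (x axis) of each gene (y axis) in Timd4+, Lyve1+ and Folr2+Lyve1- cells over Lyz1-high cells, in the CD (blue) and HFD (red) libraries, with 95% counting intervals as bars and 1.5-fold marked by dotted lines. *Slc40a1* lies farthest to the right among Lyve1+ cells (4.77 in CD and 5.51 in HFD), whereas *Blvra* lies near 0 (0.12 in both).

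*Hmox1* (ENSMUSG00000005413, chr8:75093621-75100589) encodes inducible heme oxygenase. Its level was 567 CPM in *Timd4*+ cells, 590 in *Lyve1*+, 341 in *Folr2*+*Lyve1*-, 321 in *Ccr2*+ and 249 in Lyz1-high cells of the CD library. In HFD the values were 585, 574, 477, 266 and 245 CPM in the same order. *Timd4*+ and *Lyve1*+ cells could not be told apart by their intervals in either library. These sets shared cells, as 286 of 368 *Timd4*+ cells in CD and 28 of 72 in HFD were also *Lyve1*+. Both sets stood above the others, except that in HFD the intervals of *Timd4*+ and *Folr2*+*Lyve1*- cells overlapped. The sets were also redrawn as exclusive sets. These shared no cells, except that 8 CD and 9 HFD *Folr2*+*Lyve1*- cells were also Lyz1-high. With exclusive sets, *Folr2*+*Lyve1*- cells, then without *Ccr2* UMIs, held 613 CPM in CD and 844 CPM in HFD, and the order turned. The log2 ratio of *Lyve1*+ over Lyz1-high cells was 1.52 (1.41 to 1.64) in CD and 1.55 (1.40 to 1.69) in HFD, so the ratio differed between libraries by less than counting error. The summed level of 14 immediate-early and heat shock genes, which respond to tissue dissociation, moved with *Hmox1*: it was 22038 CPM in *Lyve1*+ and 14562 CPM in Lyz1-high cells in CD, and 23907 and 15537 CPM in HFD. Its part in the *Hmox1* difference was not tested.

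The reductases that act on biliverdin behaved differently from each other. *Blvrb* (ENSMUSG00000040466, chr7:27447978-27466144), which also reduces flavins, was 561, 492, 277, 252 and 148 CPM in the same order of sets in CD, and 335, 347, 248, 144 and 114 CPM in HFD. In both libraries it was lowest in Lyz1-high cells. The *Lyve1*+ over Lyz1-high ratio was 2.10 (1.96 to 2.24) in CD and 2.02 (1.82 to 2.21) in HFD. *Blvra* (ENSMUSG00000001999, chr2:127070665-127097084), the reductase of the main biliverdin isomer, ranged only from 89.3 to 95.4 CPM over the CD sets and from 74.9 to 108 CPM over the HFD sets. The 5 *Blvra* intervals overlapped within each library. The number of *Blvra* UMIs per *Blvrb* UMI went from 0.193 (0.175 to 0.212) in *Lyve1*+ to 0.601 (0.532 to 0.679) in Lyz1-high cells in CD. In HFD it went from 0.312 (0.258 to 0.375) to 0.836 (0.735 to 0.951).

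*Slc40a1* (ENSMUSG00000025993, chr1:45908068-45926523), ferroportin, had the steepest pattern. Its level in CD was 91.0 CPM in *Timd4*+, 67.4 in *Lyve1*+, 28.4 in *Folr2*+*Lyve1*-, 10.8 in *Ccr2*+ and 5.04 in Lyz1-high cells, the last from 24 UMIs. In HFD it was 46.4, 63.2, 32.0, 6.15 and 3.05 CPM, the first from 13 UMIs and the last from 14. The order of the CD sets was clear of counting error at each step, and in HFD at the steps below *Lyve1*+ except the last. It depended on how the sets were drawn. In exclusive sets the *Folr2*+*Lyve1*- cells (263 in CD and 274 in HFD) also lack *Timd4* and *Ccr2* UMIs. These held 116 CPM in CD and 88.8 CPM in HFD, above *Timd4*+ (91.0 and 46.4) and *Lyve1*+ cells (56.9 and 64.7). The *Lyve1*+ over Lyz1-high ratio was 4.77 (3.91 to 5.78) in CD, from 349 against 11 UMIs, and 5.51 (4.46 to 6.77) in HFD, from 81 against 8 UMIs. With cells reduced at random to 800 UMIs apiece, 5.83% (exact binomial interval 4.56 to 7.34%) of *Lyve1*+ cells in CD held a *Slc40a1* UMI, against 0.360% (0.0437 to 1.30%) of Lyz1-high cells. Before thinning the shares were 20.1% and 4.14%. In HFD the thinned shares were 6.22% (4.06 to 9.04%) and 0.149% (0.00377 to 0.826%). Dendritic-like cells with *Flt3* UMIs, meant as a comparison lacking the gene, numbered only 4 in CD and 8 in HFD, and none held a *Slc40a1* UMI.

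The ferritin genes held the most UMIs of the 10 genes, and their levels differed between sets by little. *Fth1* (ENSMUSG00000024661, chr19:9980598-9985098), the heavy chain that oxidizes iron, was 4847, 4760, 4149, 3956 and 3635 CPM from *Timd4*+ to Lyz1-high cells in CD, and 5060, 5170, 5197, 4572 and 4576 CPM in HFD. *Ftl1* (ENSMUSG00000050708, chr7:45457944-45459884), the light chain, was 11878, 11160, 9856, 9416 and 8797 CPM in CD, and 9749, 10910, 11151, 9883 and 10239 CPM in HFD. Both chains were lower toward Lyz1-high cells in CD, with a *Lyve1*+ over Lyz1-high ratio of 0.48 (0.45 to 0.51) for *Fth1* and 0.42 (0.40 to 0.44) for *Ftl1*. In HFD the same ratios were 0.19 (0.14 to 0.24) and 0.08 (0.05 to 0.11). *Ftl1* shares near-identical sequence with the pseudogene *Ftl1-ps1*, so counts of either are uncertain; *Ftl1-ps1* held 0.833 to 1.35 UMIs per 100 *Ftl1* UMIs over the sets.

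**Figure D2:**
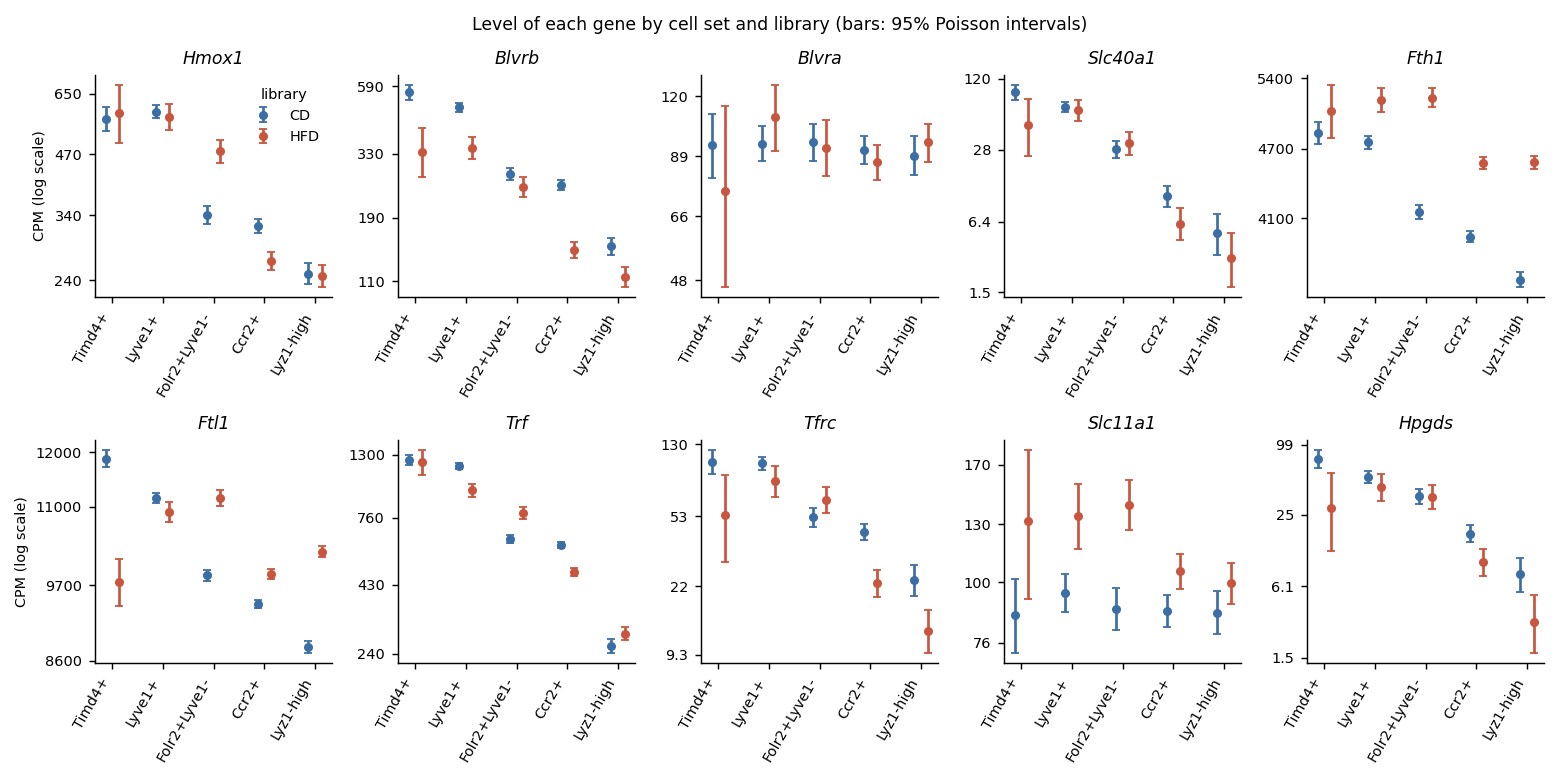
CPM of the 10 genes (y axes, log scale, a range of its own for each gene) in the 5 overlapping cell sets (x axes) of the CD (blue) and HFD (red) libraries, with 95% Poisson intervals as bars. *Slc40a1* in CD drops from 91.0 CPM in Timd4+ to 5.04 CPM in Lyz1-high cells, while *Blvra* stays between 89.3 and 95.4 CPM.

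Of the genes of iron uptake and transport, *Trf* (ENSMUSG00000032554, chr9:103204001-103230444) encodes transferrin. Its level was 1241, 1177, 635, 603 and 256 CPM from *Timd4*+ to Lyz1-high cells in CD, and 1216, 959, 792, 480 and 284 CPM in HFD. *Tfrc* (ENSMUSG00000022797, chr16:32608920-32632794), the transferrin receptor with the 4 hairpins printed above, was 105, 103, 52.1, 43.6 and 23.7 CPM in CD, and 53.5, 82.1, 65.0, 22.8 and 12.6 CPM in HFD. Both the carrier and its receptor, like the exporter *Slc40a1*, were thus higher in the resident-marked cells than in Lyz1-high cells. The *Lyve1*+ over Lyz1-high ratio of *Trf* was 2.75 (2.64 to 2.86) in CD and 2.19 (2.07 to 2.31) in HFD, and that of *Tfrc* was 2.88 (2.48 to 3.29) and 3.29 (2.78 to 3.82). *Slc11a1* (ENSMUSG00000026177, chr1:74375195-74386062), which moves metal ions out of the phagosome, was between 86.2 and 95.3 CPM in all CD sets, with overlapping intervals. In HFD it was 132, 135, 142, 105 and 99.7 CPM, higher in *Lyve1*+ than in Lyz1-high cells by 0.56 (0.27 to 0.85).

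*Hpgds* (ENSMUSG00000029919, chr6:65117293-65144908), hematopoietic prostaglandin D synthase, makes prostaglandin D2 and is a glutathione transferase by fold rather than a gene of iron transport. In CD its level followed the order of *Slc40a1*, at 74.9, 52.3, 35.8, 17.3 and 7.77 CPM. In HFD it was 28.5, 42.8, 35.7, 9.88 and 3.05 CPM, the first value from 8 UMIs and the last from 14. There *Timd4*+ cells were below *Folr2*+*Lyve1*- cells, unlike for *Slc40a1* (46.4 and 32.0 CPM), though the intervals overlapped for both genes. The *Lyve1*+ over Lyz1-high ratio of *Hpgds* was 3.44 (2.79 to 4.15) in CD and 4.63 (3.64 to 5.77) in HFD.

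*Timd4*+ and *Folr2*+*Lyve1*- cells were also compared with Lyz1-high cells. The *Folr2*+*Lyve1*- cells were mixed, with 672 CPM of *Ccr2* and 3759 CPM of *Lyz1* in CD, against 401 and 1402 CPM in *Lyve1*+ cells. In CD 269 of these 872 cells were also Lyz1-high, and such cells were left out of the comparison. Of the 10 genes, 6 were higher in *Timd4*+ than in Lyz1-high cells in CD (24.6% of 7267 genes were), the same 6 as for *Lyve1*+ cells. In HFD 5 of the 8 with enough UMIs were higher (24.6% of 6495 genes), namely *Hmox1*, *Blvrb*, *Trf*, *Tfrc* and *Slc11a1*; *Slc40a1* and *Hpgds* held 27 and 22 UMIs over both groups and were not counted. None of the genes was lower in either library, where 13.6% and 21.7% of all genes were. In *Folr2*+*Lyve1*- cells, which lack *Lyve1* UMIs altogether, 6 of 10 genes were higher in CD (18.4% of 6938 genes) and 7 of 10 in HFD (23.9% of 6748 genes), *Slc11a1* being the seventh, and again none was lower (7.32% and 9.77% of genes). The ratios in *Folr2*+*Lyve1*- cells were smaller in CD than in HFD for *Hmox1* (0.79, 0.64 to 0.94, against 1.46, 1.32 to 1.60) and *Tfrc* (1.5, 1.11 to 1.91, against 3.37, 2.82 to 3.96), whose intervals lay apart. For *Slc40a1* they overlapped (2.93, 2.18 to 3.78, against 4.61, 3.54 to 5.88). With exclusive sets the CD and HFD ratios were 1.46 and 1.93 for *Hmox1*, 3.24 and 3.63 for *Tfrc* and 5.32 and 5.76 for *Slc40a1*. One CD cell of this set carried 2056 of its 2347 hemoglobin UMIs, and with that cell left out, an alternative chosen after the data were seen, the count stayed at 6. *Ccr2*+ cells could be set only against the 24 Lyz1-high cells in CD and 69 in HFD that lacked *Ccr2* UMIs. There *Trf* was higher in *Ccr2*+ cells (1.46, 1.09 to 1.85, and 1.70, 1.41 to 2.01), while *Fth1* (-0.59, -0.68 to -0.50, and -0.38, -0.44 to -0.31), *Ftl1* (-0.27 and -0.69) and *Slc11a1* (-0.75 and -0.53) were lower in both libraries. In CD *Fth1* turned to 0.16 and *Ftl1* to 0.10 with sets assigned on thinned cells. With exclusive sets *Fth1* (0.05) and *Slc11a1* (0.49) in HFD lay above 0. The intervals of *Hmox1* and *Slc40a1* held 0 in both libraries.

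Within the resident-marked cells, *Timd4*+ cells were compared with *Lyve1*+*Timd4*- cells. In CD (368 against 886 cells) *Slc40a1* was 91.0 against 56.9 CPM, a log2 ratio of 0.68 (0.37 to 0.98), and *Hpgds* was 74.9 against 44.5 CPM, 0.75 (0.41 to 1.09). *Blvrb* differed by 0.30 (0.18 to 0.41), whereas *Hmox1* (-0.05, -0.16 to 0.06) and *Tfrc* (0.06, -0.20 to 0.32) did not differ beyond counting error. In HFD only 72 *Timd4*+ cells were left, and the intervals of *Slc40a1* (-0.48, -1.45 to 0.37), *Hpgds* (-0.63, -1.91 to 0.45) and *Tfrc* (-0.64, -1.53 to 0.14) held 0. *Trf* was higher in *Timd4*+ cells in both libraries (0.14, 0.07 to 0.22, in CD and 0.35, 0.17 to 0.53, in HFD). With equal weight per cell the HFD ratio of *Trf* was -0.02. *Ftl1* was higher in CD (0.14, 0.11 to 0.16) and lower in HFD (-0.18, -0.24 to -0.12). Its HFD ratio was also -0.02 with equal weight per cell.

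Because 1 UMI places a cell in most of these sets, the genes were also followed along the balance of *Folr2* to *Lyz1*, the share of *Folr2* among the UMIs of both genes, in cells with at least 5 such UMIs. The 4 bins, from mostly *Lyz1* to mostly *Folr2*, held 450, 181, 454 and 646 cells in CD and 727, 76, 123 and 64 in HFD. *Hmox1*, *Blvrb*, *Slc40a1*, *Fth1*, *Ftl1* and *Trf* had higher values at each of the 3 steps toward *Folr2* in both libraries. In CD the intervals of neighbouring bins lay apart, except for *Slc40a1* in the first and second bins. In HFD each of these genes had neighbouring bins with overlapping intervals, such as the third and last for *Hmox1* (462 to 599 and 506 to 710 CPM). *Hmox1* went from 225 to 335, 549 and 639 CPM in CD and from 251 to 344, 527 and 602 CPM in HFD. *Slc40a1* went from 3.17 to 9.15, 56.0 and 88.3 CPM in CD and from 2.97 to 7.87, 40.7 and 133 CPM in HFD, where the second bin rested on 3 UMIs. The largest fold between neighbouring bins was thus between the second and the third bin in both libraries. *Tfrc* was highest in the third bin, at 113 CPM in CD and 90.5 CPM in HFD, and the last bin held 109 and 64.5 CPM. The intervals of these bins overlapped in both libraries. The last bin over the first gave a log2 ratio of 3.26 (3.13 to 3.38) for *Trf* in CD and 2.28 (2.10 to 2.45) in HFD. *Slc11a1* did not change along the balance in CD (0.06, -0.18 to 0.30) but was higher toward *Folr2* in HFD (1.05, 0.60 to 1.48).

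**Figure D3:**
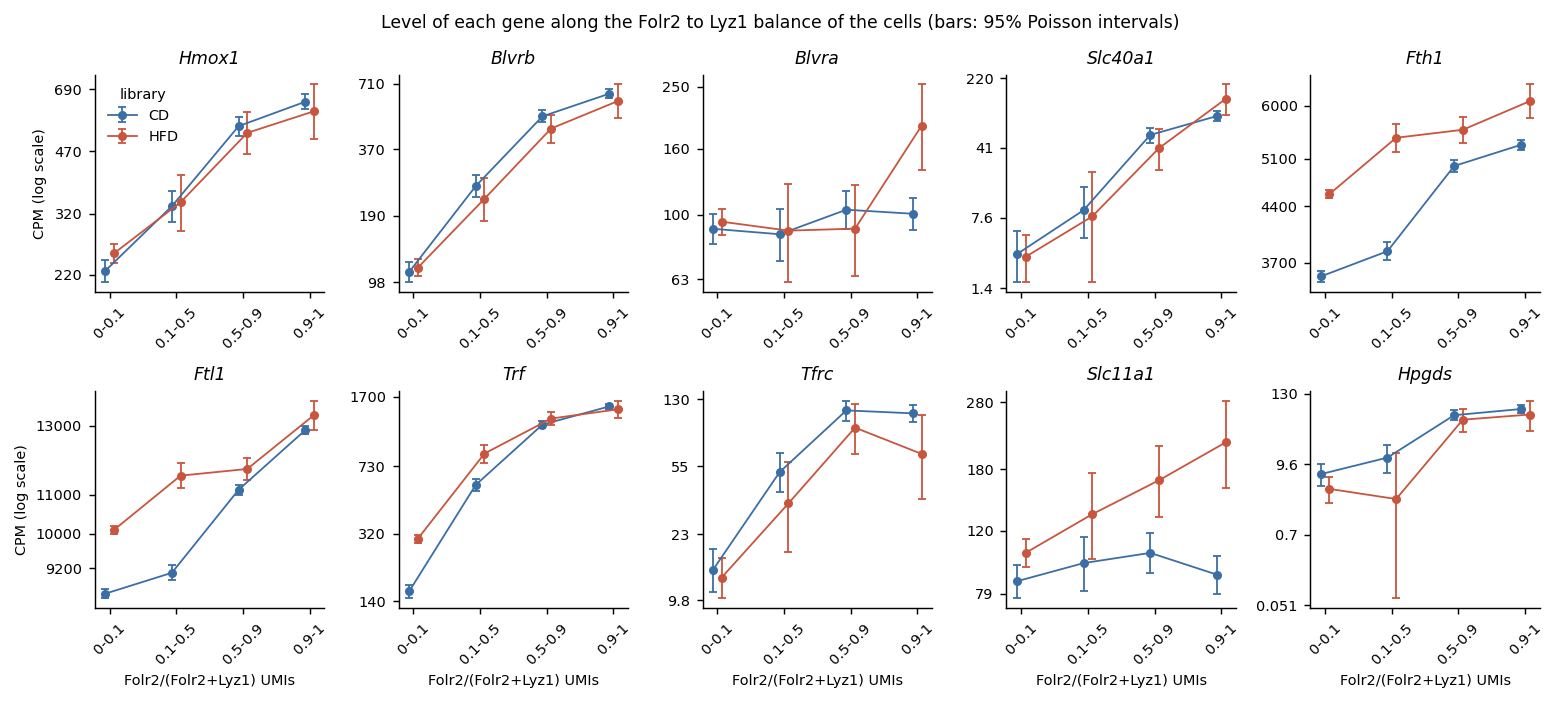
CPM of the 10 genes (y axes, log scale) in 4 bins of the share of Folr2 among Folr2 and Lyz1 UMIs per cell (x axes) in the CD (blue) and HFD (red) libraries, with 95% Poisson intervals as bars. *Hmox1* is higher at each step in both libraries (225 to 639 CPM in CD and 251 to 602 CPM in HFD), though its intervals in the third and last HFD bins overlap. *Slc11a1* separates the libraries most in the last bin (89.7 and 215 CPM).

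Between diets, *Blvrb* was lower in the HFD library in all 5 sets, and *Slc11a1* and *Fth1* were higher in all 5. The log2 ratio of HFD over CD for *Blvrb* was -0.74 (-1.07 to -0.44) in *Timd4*+, -0.50 (-0.65 to -0.36) in *Lyve1*+, -0.16 (-0.31 to -0.02) in *Folr2*+*Lyve1*-, -0.81 (-0.92 to -0.69) in *Ccr2*+ and -0.38 (-0.55 to -0.22) in Lyz1-high cells. For *Slc11a1* it was 0.61 (0.05 to 1.14), 0.50 (0.25 to 0.75), 0.68 (0.46 to 0.89), 0.26 (0.11 to 0.41) and 0.19 (-0.00 to 0.39) in the same order. *Fth1* differed by 0.06 to 0.33, with an interval above 0 in 4 of 5 sets. It turned to -0.15 in *Timd4*+ cells with sets assigned on thinned cells, and to -0.04 in *Lyve1*+ cells with equal weight per cell. These are differences between 2 libraries, with no measure of the spread between mice.

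By the 1.5-fold rule, the genes that differed between diets depended on the set. In *Lyve1*+ cells none of the 10 was higher (7.27% of 7969 genes were) or lower (8.58%). In *Folr2*+*Lyve1*- cells *Slc11a1* was higher (1 of 10, beside 7.10% of 7929 genes) and none was lower (5.95%). In *Ccr2*+ cells none was higher (4.17% of 9198 genes) and 4 of 10 were lower (8.21%): *Slc40a1* (-0.81, -1.40 to -0.26), *Hpgds* (-0.80, -1.26 to -0.37), *Tfrc* (-0.93, -1.22 to -0.65) and *Blvrb*. Exclusive sets left 103 CD and 257 HFD *Ccr2*+ cells, with no *Folr2* and under 10 *Lyz1* UMIs. There 0 were lower and 3 were higher, *Slc11a1* (1.63), *Hmox1* (0.68) and *Trf* (0.63). *Tfrc* (1.35), *Hpgds* (2.88), *Blvrb* (0.49) and *Blvra* (0.20) also lay above 0. Of these, *Tfrc* and *Hpgds* passed 1.5-fold but held fewer than 50 UMIs over both libraries, so neither was called. With equal weight per cell only *Blvrb* stayed lower by 1.5-fold, and with sets assigned on thinned cells only *Tfrc* and *Blvrb*. The share of all genes past 1.5-fold was counted only in the main setting, so none stands beside the counts of other settings. In Lyz1-high cells none of 9 was higher (4.81% of 8149 genes), and *Hpgds* (-1.35, -2.35 to -0.43) and *Tfrc* (-0.91, -1.39 to -0.44) were lower (6.05%), *Hpgds* from 14 UMIs in HFD and 37 in CD. In *Timd4*+ cells *Slc11a1* was higher (1 of 10, beside 8.08% of 4393 genes), and *Slc40a1*, *Hpgds*, *Tfrc* and *Blvrb* were lower (4 of 10, beside 17.1%), from 13, 8, 15 and 94 UMIs in HFD. In *Timd4*+ cells the call of *Slc11a1* ended under 4 of the 13 other settings tried, only *Hpgds* stayed lower with equal weight per cell (*Slc40a1* -0.28, *Tfrc* -0.32 and *Blvrb* -0.43), and only *Tfrc* and *Blvrb* with sets assigned on thinned cells. In Lyz1-high cells *Hpgds* lost its call under 3 settings, and both genes under 2 more. The *Hpgds* ratio there stayed between -1.83 and -0.93 under all 13 settings, past 1.5-fold. Its calls thus ended only because it fell below the minimum of 50 UMIs. In *Timd4*+ cells its ratio stayed between -2.86 and -0.73, so its call on thinned cells ended in the same way. Over the sets, *Hpgds* and *Tfrc* were lower in 3 or more of the 5 (2 of 10, beside 3.73% of 9255 genes), and none was higher in as many (1.75%). The sets share cells, with 603 of the 672 HFD Lyz1-high cells also *Ccr2*+, so calls in several sets were not separate observations.

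The sets were not alike in composition between the libraries, and the values stand beside these results. *Lyve1*+ cells of HFD held 2969 CPM of *Lyz1* and 794 CPM of *Folr2*, against 1402 and 1931 CPM in CD, and *Ccr2*+ cells of HFD held 6929 CPM of *Lyz1* against 4176 CPM in CD. Of the *Timd4*+ cells, 28 of 72 in HFD but 286 of 368 in CD carried a *Lyve1* UMI, and dendritic cell markers (*Flt3*, *Ccl17*, *Zbtb46*) summed to 492 CPM in HFD, with *Flt3* at 0, against 27.4 CPM in CD. Over the 5 sets these markers ranged from 5.88 to 27.7 CPM in CD and from 9.79 to 492 CPM in HFD. Monocyte markers (*Plac8*, *Ly6c2*, *Chil3*) summed to 157 CPM in HFD and 1.19 CPM in CD in *Timd4*+ cells, with *Chil3* at 0 in the latter, and to 133 and 40.8 CPM in *Ccr2*+ cells, within ranges of 11.3 to 157 CPM in HFD and 1.19 to 59.98 CPM in CD. Erythroid markers (4 hemoglobin genes and *Alas2*) summed to 14.1 to 26.9 CPM over the HFD sets and 52.7 to 473 CPM over the CD sets. The 473 CPM was in *Folr2*+*Lyve1*- cells, where 1 cell carried 2056 of 2347 hemoglobin UMIs. Stromal markers (*Col1a1*, *Col3a1*, *Dcn*, *Pdgfra*) summed to 126 CPM in *Folr2*+*Lyve1*- cells of CD and 3.20 CPM in HFD, with *Col1a1* and *Pdgfra* at 0 in the latter. The part of all these markers in the diet ratios of the sets was not tested.

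**Figure D4:**
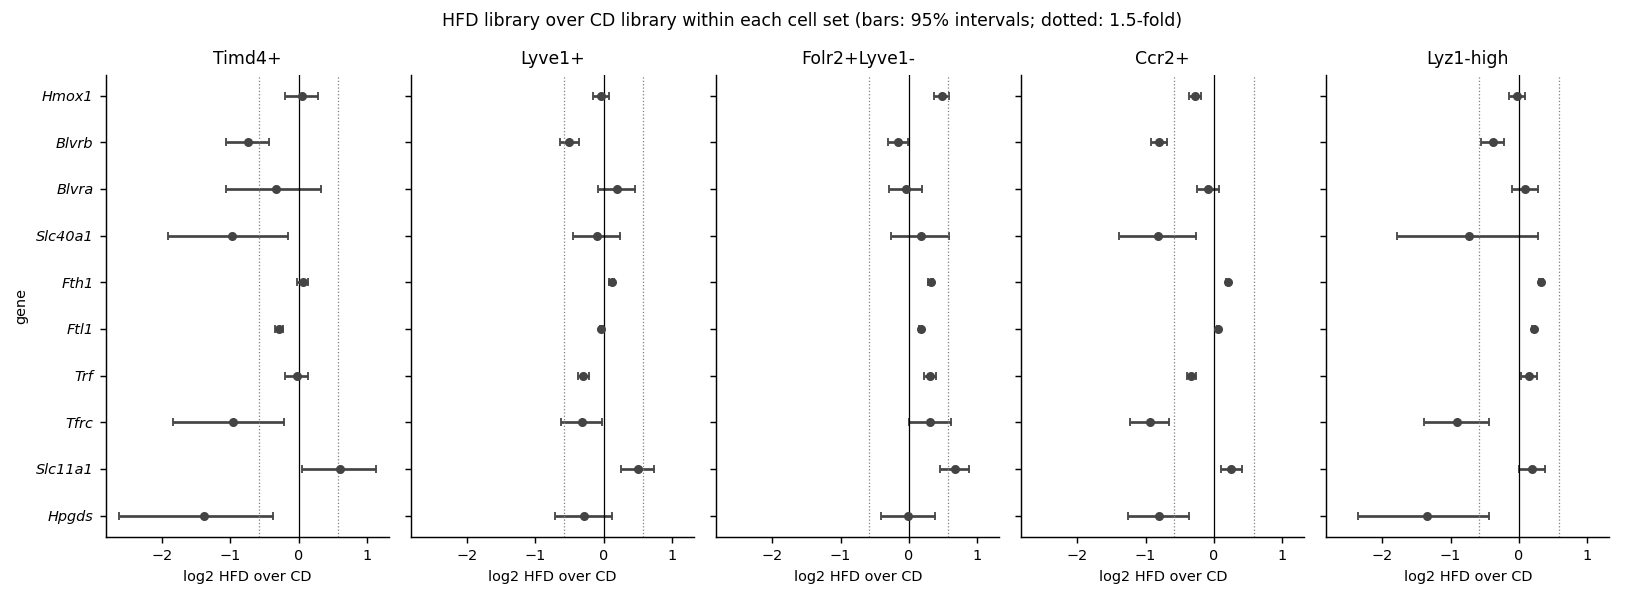
Log2 ratio of CPM of HFD over CD (x axes) for each gene (y axis) within each of the 5 cell sets, with 95% counting intervals as bars and 1.5-fold marked by dotted lines. *Blvrb* lies left of 0 in all 5 panels (-0.81 to -0.16), and *Hmox1* lies right of 0 in Folr2+Lyve1- cells (0.49) and left of 0 in Ccr2+ cells (-0.27).

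The diets were also compared within bins of the *Folr2* to *Lyz1* balance. The HFD over CD ratio of *Blvrb* was 0.06 (-0.13 to 0.25), -0.18 (-0.54 to 0.16), -0.18 (-0.40 to 0.04) and -0.11 (-0.36 to 0.14) from the first to the last bin, so that every interval held 0. *Slc11a1* kept its difference, with ratios of 0.27 (0.06 to 0.48), 0.47 (-0.03 to 0.95), 0.69 (0.29 to 1.08) and 1.26 (0.79 to 1.70), the last from 50 UMIs in HFD and 255 in CD. *Trf* differed most in the cells with mostly *Lyz1*, at 300 CPM in HFD and 158 CPM in CD, a ratio of 0.93 (0.79 to 1.07), and then by 0.55 (0.36 to 0.74), 0.11 (-0.03 to 0.24) and -0.05 (-0.21 to 0.11). *Fth1* was higher in HFD in each bin, by 0.37, 0.50, 0.16 and 0.19, with every interval above 0. *Hmox1* differed by 0.16 (0.03 to 0.28) in the first bin, and its intervals held 0 in the others. *Blvra* was higher in HFD in the last bin (0.91, 0.42 to 1.37), from 44 UMIs against 286, and no other bin separated the libraries for it. *Slc40a1* was higher in HFD in the last bin (0.59, 0.01 to 1.14, from 31 and 251 UMIs) and *Tfrc* lower there (-0.75, -1.61 to -0.01, from 15 and 309 UMIs). In the other bins the intervals of *Slc40a1* and *Tfrc* held 0, as did those of *Hpgds* in all 4.

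The ferritin chains also shifted relative to each other. In CD there were 0.408 to 0.427 *Fth1* UMIs per *Ftl1* UMI over the 5 sets. In HFD the ratio was 0.519 (0.486 to 0.554) in *Timd4*+, 0.474 (0.461 to 0.487) in *Lyve1*+, 0.466 (0.456 to 0.477) in *Folr2*+*Lyve1*-, 0.463 (0.456 to 0.469) in *Ccr2*+ and 0.447 (0.440 to 0.454) in Lyz1-high cells. The HFD interval lay above the CD interval in every set. Capture can differ between genes, so the ratio compares sets and libraries and does not give the number of transcripts of either chain. Cells in none of the 5 sets numbered 47 in CD and 277 in HFD, with a median of 1390 and 1023 UMIs. In HFD these cells held 658 CPM of *Hmox1*, 77.9 CPM of *Slc40a1* and 1164 CPM of *Trf*, each above its level in Lyz1-high cells. *Lyve1*+ cells of HFD held 574, 63.2 and 959 CPM of these genes, so cells in no set were not lower. The *Hmox1* and *Slc40a1* intervals overlapped, and the *Trf* intervals lay apart. In CD the cells in no set held 205 CPM of *Hmox1* (130 to 307, from 23 UMIs), beside 249 CPM in Lyz1-high and 590 CPM in *Lyve1*+ cells. The CD levels of cells in no set for *Slc40a1* (53.4 CPM, from 6 UMIs) and *Trf* (650 CPM) were above those of Lyz1-high cells. In *Lyve1*+ cells of CD these were 67.4 and 1177 CPM.

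**Figure D5:**
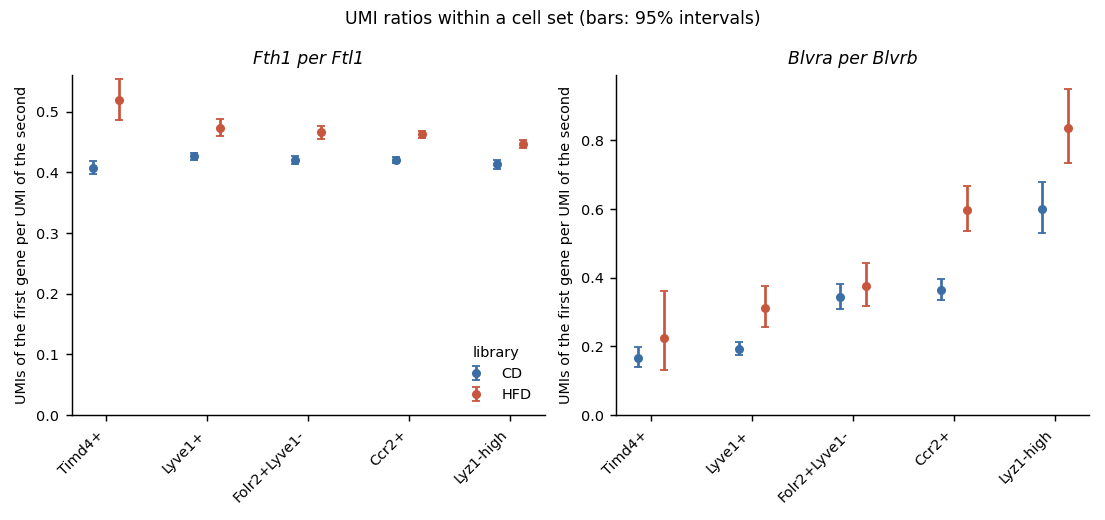
UMIs of Fth1 per UMI of Ftl1 (left) and of Blvra per UMI of Blvrb (right) on linear y axes from 0, in the 5 cell sets (x axes) of the CD (blue) and HFD (red) libraries, with 95% counting intervals as bars. The ferritin ratio is 0.408 to 0.427 in CD and 0.447 to 0.519 in HFD, and the reductase ratio is highest in Lyz1-high cells (0.601 and 0.836).

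Of 51 further gene symbols listed for iron and heme, 50 were in the tables, and 30 had at least 50 UMIs in the *Lyve1*+ and Lyz1-high comparison of both libraries. Of these 30, 10 were higher in *Lyve1*+ cells in both libraries, as were 16.7% of 6845 genes, and none was lower in both, as were 8.14%. The median ratio over the listed genes with enough UMIs was 0.36 in CD (37 genes) and 0.36 in HFD (30 genes), beside the 0.22 and 0.19 over all genes given above. For uptake and transport, they were *Cd163*, the scavenger receptor for hemoglobin bound to haptoglobin (483 against 46.5 CPM in CD, a log2 ratio of 3.38, and 684 against 39.9 CPM in HFD, 4.10), and *Cp*, the ferroxidase ceruloplasmin (5.39, 4.15 to 7.02, and 6.26, 4.84 to 8.17). In Lyz1-high cells *Cp* held only 1.36 CPM in CD and 0.967 CPM in HFD. *Ncoa4*, the receptor that takes ferritin to the lysosome (2.16 and 1.0), and *Fbxl5*, which limits an iron regulatory protein when iron is ample (0.69, 0.33 to 1.05, and 0.62, 0.16 to 1.06), belong to intracellular iron. *Fech* places iron in heme (0.59, 0.13 to 1.05, and 1.01, 0.32 to 1.66), and *Hmox2* is the constitutive heme oxygenase (0.82 and 0.75). The mitochondrial iron importers *Slc25a37* (0.64 and 0.91) and *Slc25a28* (1.07 and 0.98) and the transcription factors *Maf* (2.72 and 3.23) and *Mafg* (0.90 and 1.31) completed the 10. *Nfe2l2*, which encodes an activator of *Hmox1*, differed by -0.10 in CD and -0.06 in HFD, and its intervals held 0. Only mRNA was counted, and the part of *Nfe2l2* in the *Hmox1* difference was not tested.

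Between diets, 3 of the 39 listed genes with enough UMIs in at least 1 set were lower in HFD in 3 or more of the 5 overlapping sets. None was higher in as many, beside the 3.73% and 1.75% of all genes given above. *Ncoa4* differed by -1.87 in *Timd4*+, -1.15 in *Lyve1*+, -0.38 in *Folr2*+*Lyve1*-, -0.80 in *Ccr2*+ and -0.18 in Lyz1-high cells. *Maf* differed by -0.62, -0.31, 0.13, -0.92 and -0.92 in the same order. *Hebp1*, a heme-binding protein, was lower in the 3 sets in which it had 50 or more UMIs, by 0.67 in *Lyve1*+, 1.45 in *Folr2*+*Lyve1*- and 0.69 in *Ccr2*+ cells on the log2 scale.

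The genes most like 5 of the 10 were sought among 3875 genes by Pearson's r of log2(CPM + 1) over 10 points, the 5 exclusive sets of each library. Points of a library share its depth and its mice, so r is a description. *Hmox1* was most like *Pikfyve* (0.987), *Mafg* (0.987) and *Plekhb2* (0.985), and *Slc40a1* most like *Tceal9* (0.991), *Adam19* (0.990) and *Dab2* (0.989). *Trf* was most like *Ms4a7* (0.985), *Zfp36l1* (0.982) and *Bst2* (0.976). *Tfrc* was most like *Egr1* (0.996), one of the 14 dissociation genes, then *Ctsb* (0.992) and *Gna12* (0.992). *Hpgds* was most like *Tfrc* itself (0.989), *Slc29a1* (0.982) and *Tug1* (0.982).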

How the data were processed

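Droplet single-cell libraries (10X 3′ V2) were made from sorted ATMs, 1 per diet, each pooling 3 mice. The authors aligned reads to mm10 with Cell Ranger 3.0.2 and Ensembl 93 genes, and deposited raw UMI counts per gene and barcode. Cells with 200 to 3500 genes and at most 10% mitochondrial UMIs were kept, and the doublets were not removed in the main values. UMIs were summed per set and library and divided by the summed total (CPM), with exact Poisson intervals; log2 ratios had exact conditional binomial intervals, and shares exact binomial intervals. Intervals cover counting error only. No p-value was computed. The calculations were tested on simulated data with 200 changed genes.

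All 10 genes are named. Other iron and heme genes are named where they passed 1.5-fold with at least 50 UMIs in both libraries (*Lyve1*+ over Lyz1-high cells) or in at least 3 of 5 sets (HFD over CD), and for 5 genes the 3 with the highest r among genes with at least 500 UMIs. The genes and lists were chosen with earlier results of these data known. *Nfe2l2* was named after its values were seen. One gene of the list is not reported here. Gene positions and transcripts came from GENCODE M21 on GRCm38, the build named mm10 by the authors. Alternatives varied the scaling, the denominator, cell weights, cell filters, set definitions, doublets, shared barcodes and the UMI minimum. Python 3.11.15, numpy 2.4.6, scipy 1.17.1, pandas 2.3.3 and scanpy 1.11.5 were used.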

Additional observations from a re-analysis of the deposited data

Results flagged for a closer look

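Of the 10 genes, 4 were flagged because the HFD library was above the CD library in 1 cell set and below it in another, with both counting intervals clear of 0. The difference between sets was not tested, since each diet has 1 library. *Hmox1* had a log2 ratio of 0.49 in *Folr2*+*Lyve1*- cells and -0.27 in *Ccr2*+ cells. *Trf* had 0.32 and -0.33 in the same sets. *Ftl1* had 0.22 in Lyz1-high cells and -0.28 in *Timd4*+ cells. *Tfrc* had 0.32 in *Folr2*+*Lyve1*- cells and -0.97 in *Timd4*+ cells, the latter from 15 UMIs in HFD. With exclusive sets the ratio in *Ccr2*+ cells was 0.68 for *Hmox1* and 0.63 for *Trf*, so the opposite signs of these genes depended on how the sets were drawn. In *Folr2*+*Lyve1*- cells *Trf* was -0.11 with sets assigned on thinned cells and *Tfrc* -0.02 with at least 1000 genes per cell, whereas both *Ftl1* signs held under the 13 settings.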

How the results depend on the processing

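The levels, ratios and calls of the 10 genes in the cell sets were repeated under 12 other settings and 1 chosen after the data were seen. In the latter, cells with 10 or more hemoglobin UMIs were left out. The shares of cells, the balance bins, the ratios of gene pairs, the further iron and heme genes, the correlations and the shares of all genes were not repeated. In the 6 comparisons of resident-marked with Lyz1-high cells, the number of genes higher by 1.5-fold stayed within 1.5 times its value under each of the 13 settings. For *Lyve1*+ cells of both libraries, the log2 ratio ranged over these settings from 1.28 to 1.72 for *Hmox1*, from 1.63 to 2.17 for *Blvrb* and from 4.21 to 6.30 for *Slc40a1*, while those of *Blvra*, *Ftl1* and *Slc11a1* also reached values at or below 0 (-0.08, -0.04 and -0.01). In *Timd4*+ over Lyz1-high cells of HFD, 1 gene, *Blvra*, was lower with a mitochondrial limit of 5%. In *Ccr2*+ over Lyz1-high cells of CD, *Fth1* turned to 0.16 and *Ftl1* to 0.10 with sets assigned on thinned cells. With exclusive sets *Tfrc* turned to -0.43 and *Hpgds* to -1.65 there. The exclusive *Ccr2*+ set of CD held only 103 cells and 535702 UMIs, with fewer than 50 UMIs of either gene. Exclusive sets also moved *Folr2*+*Lyve1*- cells, then without *Ccr2* UMIs: their CD ratio over Lyz1-high cells went from 0.79 to 1.46 for *Hmox1* and from 2.93 to 5.32 for *Slc40a1*.

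The counts between diets moved more, and the share of all genes past 1.5-fold was not counted under these settings. In *Timd4*+ cells, 0 genes were higher with a mitochondrial limit of 5%, at least 1000 genes per cell, sets assigned on thinned cells or shared barcodes left out, and 1 was lower with equal weight per cell and 2 with sets assigned on thinned cells. In *Lyve1*+ cells, 2 were lower with at least 1000 genes per cell, and in *Folr2*+*Lyve1*- cells 2 were higher with equal weight per cell. In *Ccr2*+ cells, 1 was lower with equal weight per cell and 2 with sets assigned on thinned cells. Exclusive sets left 103 CD and 257 HFD *Ccr2*+ cells without *Folr2* UMIs and without 10 *Lyz1* UMIs. There 3 were higher (*Slc11a1*, *Hmox1* and *Trf*) and 0 lower, and *Tfrc* (1.35), *Blvrb* (0.49) and *Hpgds* (2.88) reversed. *Tfrc* and *Hpgds* held fewer than 50 UMIs over both libraries in these sets, so neither was called. In Lyz1-high cells, 1 was lower with a mitochondrial limit of 5%, with doublets left out or with at least 20 *Lyz1* UMIs, and 0 with exclusive sets or sets assigned on thinned cells. The *Hpgds* ratio stayed past 1.5-fold in *Timd4*+ (-2.86 to -0.73) and Lyz1-high cells (-1.83 to -0.93) under every setting. Its calls there ended only because it fell below the minimum of 50 UMIs. The causes of the other changes were not tested.

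No paired analysis was possible because each diet has 1 library, which also leaves no replicate to omit. Doublet calling marked 0 CD and 2 HFD barcodes, so those ranked highest were removed to match the usual rate (159 and 80 barcodes). Genes below about 50 UMIs per set, chiefly *Slc40a1* and *Hpgds* in HFD *Timd4*+ and Lyz1-high cells, had wide intervals.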
